A study of Mus musculus with 6 samples.

Results

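The genes described here are 10 molecules of the vessel wall, the adhesion molecules Vcam1, Icam1, Icam2, Sele, Selp, Pecam1, Podxl, Mcam and Cd34 and the clotting protein gene Vwf. They were found by their symbol among the 33000 genes of a count table, and each matched 1 row. They were measured in frontal cortex, in 3 libraries of wild-type (WT) mice and 3 of GFAP-IL6 mice. The sample names mark the GFAP-IL6 mice as homozygous (HOM), and all mice were aged 3 months. The study names the WT mice as C57BL/6. GFAP-IL6 is a transgene in which the promoter of Gfap, an astrocyte gene, drives the cytokine IL6, so that astrocytes are the intended source of IL6. No other allele or treatment is named for either group, and the libraries were prepared with the TruSeq mRNA protocol. The genes were chosen by name, for their known roles, after their fold changes and adjusted p values for GFAP-IL6 against WT had been seen. Fold changes and adjusted p values, which come from edgeR's quasi-likelihood test over all 15341 genes tested, therefore describe these genes and are no independent evidence about them.

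Leukocytes leave the blood in steps. Selectins such as E-selectin (Sele) and P-selectin (Selp) slow the passing cell, immunoglobulin-like molecules such as ICAM-1 (Icam1) and VCAM-1 (Vcam1) bind its integrins and arrest it, and PECAM-1 (Pecam1) takes part in its passage between endothelial cells. Sele, Selp, Icam1 and Vcam1 are known as molecules that endothelium raises when it meets inflammatory cytokines, and are called inducible here. Icam2, Pecam1, Vwf, Podxl, Mcam and Cd34 are present on or in resting endothelium, and are called constitutive here. Healthy brain endothelium is known to carry little of the inducible group. Several of the genes are also used outside endothelium, Icam1 by microglia and astrocytes, Mcam by pericytes, Pecam1, Selp and Vwf by platelets or their precursors, and Cd34 by blood progenitors.

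The 6 libraries held between 7559524 and 16877001 counts. Every GFAP-IL6 library was shallower than every WT library, with means of 9164060 ± 1775790 and 14863400 ± 2858930 counts. The exact two-sided permutation p was 0.1, the smallest that 3 against 3 libraries allow. Levels are given as CPM, counts divided by library size after TMM scaling, a correction for library composition. A value after ± is the SD over the 3 libraries of a group unless it is marked as a standard error (SE). One count was worth less in deeper WT libraries, and 3 counts, used as the floor of detection, were equal to 0.179 to 0.261 CPM in WT. Of the 10 genes, 8 passed the filter on low counts, whereas Sele and Selp did not. WT replicate 3 stood apart by 8766 counts of Ttr, a choroid plexus gene with 15 to 358 counts in the other libraries.

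The sequence before the start of the inducible genes is shown first, because IL6 is known to act through STAT3 and other inflammatory cytokines through NF-κB and AP-1. RefSeq promoters were at hand for 5 of the 10 genes (Icam1, Sele, Selp, Mcam and Cd34). The 250 bases before the start were searched on both strands for TTCNNNGAA, the palindrome that STAT factors bind, for TGANTCA, bound by AP-1, and for a strict form of the NF-κB consensus that begins with GGG and ends with CC. Capitals mark the matches, which did not overlap each other. The windows lie on the plus strand of GRCm38.p6 at chr9:21015690-21015939 for Icam1, chr1:164047984-164048233 for Sele and chr1:164115014-164115263 for Selp.
Icam1: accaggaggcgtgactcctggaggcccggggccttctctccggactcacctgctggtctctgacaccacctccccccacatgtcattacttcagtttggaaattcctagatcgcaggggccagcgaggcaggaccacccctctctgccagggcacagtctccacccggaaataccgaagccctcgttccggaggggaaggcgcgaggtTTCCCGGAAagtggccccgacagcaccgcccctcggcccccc
Sele: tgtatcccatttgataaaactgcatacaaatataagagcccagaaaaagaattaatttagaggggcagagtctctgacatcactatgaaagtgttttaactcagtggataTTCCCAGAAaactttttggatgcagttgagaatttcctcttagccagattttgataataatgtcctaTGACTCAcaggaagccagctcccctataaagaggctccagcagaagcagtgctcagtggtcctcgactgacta
Selp: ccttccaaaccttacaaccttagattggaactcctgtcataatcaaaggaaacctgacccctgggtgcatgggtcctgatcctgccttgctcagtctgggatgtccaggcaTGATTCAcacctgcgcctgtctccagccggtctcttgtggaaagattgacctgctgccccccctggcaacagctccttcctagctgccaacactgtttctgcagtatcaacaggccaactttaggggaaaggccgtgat

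Icam1 held a STAT palindrome 42 to 34 bases before its start. Sele held a STAT palindrome 140 to 132 bases and an AP-1 site 73 to 67 bases before its start. Selp held an AP-1 site at 139 to 133 bases and no STAT palindrome. Mcam and Cd34 had no match in their windows, and the strict NF-κB form was matched in none of the 5. Looser forms of the NF-κB element were not searched, so a site of that kind may lie in these windows. Among 32851 promoter windows of this length, 7.02% held the STAT palindrome, 6.75% the AP-1 site and 3.9% the strict NF-κB form. A match of letters does not show that a factor binds, and a lack of one says nothing about the factor.

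E-selectin and P-selectin transcripts were at or under the floor in every WT library and were counted in every GFAP-IL6 library. Sele (ENSMUSG00000026582.6, chromosome 1, 164048234 to 164057677, plus strand) was counted 1, 1 and 1 times in WT replicates 1, 2 and 3, against 6, 12 and 13 times in GFAP-IL6. The groups did not overlap, even though the GFAP-IL6 libraries were shallower. In GFAP-IL6 this came to 1.19 ± 0.57 CPM. From 31 counts against 3, the level was 16.5-fold higher in GFAP-IL6, with an exact 95% interval of 5.14 to 84.3 that covers counting error only. Selp (ENSMUSG00000026580.14, chromosome 1, 164115264 to 164150026, plus strand) was not counted in WT, at 0 counts in each library, and was counted 4, 2 and 7 times in GFAP-IL6. Its GFAP-IL6 level of 0.468 ± 0.275 CPM was at least 2.23-fold higher than 3 counts per WT library. One GFAP-IL6 library, replicate 2, was itself under the floor for Selp.

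Sele also passed the filter in 4 of the 6 fits that left out a library, without WT replicate 1, 2 or 3 or GFAP-IL6 replicate 1, but it did so through its GFAP-IL6 counts, so that its calls there are not given as support. Selp was tested only where low counts were let through. Without the filter, edgeR gave adjusted p values of 8.94e-05 for Sele and 0.00588 for Selp, and DESeq2 gave 0.00772 and 0.0424. Both genes enter these fits mainly through their GFAP-IL6 counts, so that these values too are not given as support. The edgeR fit without the filter called 1154 genes, against 439 with it. Of the Selp exon bases, 14.1% also lie in exons of genes on the other strand, Gm16587 and Gm16548. As the use of strand in counting is not known, reads of these genes cannot be told apart from Selp there. Sele shares no exon base with another annotated gene. In whole tissue, more vessel cells and more RNA per vessel cell cannot be told apart, and this holds for each gene below.

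The other inducible genes encode ligands of leukocyte integrins and were both expressed in WT cortex, but only Icam1 passed the test. Icam1 (ENSMUSG00000037405.7, chromosome 9, 21015985 to 21028817, plus strand), a ligand of the integrins LFA-1 and Mac-1, stood at 2.44, 2.74 and 2.76 CPM in WT replicates 1 to 3. In GFAP-IL6 it stood at 6.27, 5.15 and 7.37 CPM. The lowest GFAP-IL6 library was thus well above the highest WT library. Icam1 rose 2.36-fold (log2 fold change 1.24, SE 0.20, edgeR adjusted p = 0.00442). The counts behind these levels were modest, 28 to 46 in WT and 39 to 70 in GFAP-IL6, and 11.7% of its exon bases also lie in exons of the antisense gene Gm47079.

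Vcam1 (ENSMUSG00000027962.12, chromosome 3, 116109949 to 116129688, minus strand), a ligand of the integrin VLA-4, did not pass the test. Its WT levels were 19.4, 32.1 and 27.4 CPM and its GFAP-IL6 levels 30.7, 31.2 and 36.8 CPM. The groups overlapped, since WT replicate 2 lay above GFAP-IL6 replicates 1 and 2. The log2 fold change was 0.31 ± 0.15 (SE), with an edgeR p of 0.0647 before adjustment and an edgeR adjusted p of 0.273. Its 95% interval of 0.010 to 0.61 used a normal quantile and is narrower than edgeR's test implies. The interval is therefore not read as a rise. The intervals of Cd34, Mcam and Icam2 below were made in the same way. Across the fits that left out each library in turn, the log2 fold change of Vcam1 lay between 0.15 and 0.47. WT replicate 1 was the lowest library, and the coefficient of variation over WT libraries was 24.3%, the highest of the 8 tested genes.

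Vwf and Podxl, which belong to the constitutive group, had larger fold changes than Icam1. Vwf (ENSMUSG00000001930.15, chromosome 6, 125546774 to 125686679, plus strand) encodes von Willebrand factor, the multimeric protein that endothelium stores in Weibel-Palade bodies beside P-selectin and that tethers platelets. It stood at 12.5, 8.77 and 13.9 CPM in WT and at 55.0, 58.0 and 81.9 CPM in GFAP-IL6. No GFAP-IL6 library was near the WT range. Vwf rose 5.57-fold (log2 fold change 2.48, SE 0.18, edgeR adjusted p = 6.58e-06). By log2 fold change it ranked 34 from the top among all genes tested.

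Podxl (ENSMUSG00000025608.9, chromosome 6, 31519488 to 31563981, minus strand) encodes podocalyxin, a sialomucin of the CD34 family that lines the luminal face of endothelium and is best known from kidney podocytes. It stood at 29.1, 28.2 and 32.3 CPM in WT and at 84.0, 79.5 and 99.1 CPM in GFAP-IL6. The libraries of each group lay close together, with coefficients of variation of 7.15% and 11.8%. Podxl rose 2.93-fold (log2 fold change 1.55, SE 0.10, edgeR adjusted p = 3.85e-06). Neither Vwf nor Podxl shares an exon base with another annotated gene.

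Pecam1 (ENSMUSG00000020717.17, chromosome 11, 106654217 to 106750628, minus strand), an adhesion molecule of endothelial cell borders, changed by less. It stood at 16.8, 13.1 and 18.3 CPM in WT and at 22.1, 24.3 and 27.0 CPM in GFAP-IL6. The groups did not overlap. Pecam1 rose 1.52-fold (log2 fold change 0.60, SE 0.14, edgeR adjusted p = 0.0315). This call was lost without GFAP-IL6 replicate 1, 2 or 3, with adjusted p values of 0.0551, 0.103 and 0.214, and was kept without each WT library. The log2 fold changes without those GFAP-IL6 libraries were 0.68, 0.61 and 0.53.

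The remaining constitutive genes did not pass the test. Cd34 (ENSMUSG00000016494.7, chromosome 1, 194938819 to 194961279, plus strand), a sialomucin of endothelium and blood progenitors and a relative of Podxl, was the most abundant of the 10. It stood at 116.2, 116.3 and 108.7 CPM in WT and at 122.7, 141.2 and 116.5 CPM in GFAP-IL6. The highest WT library lay just under the lowest GFAP-IL6 library. The log2 fold change was 0.16 ± 0.089 (SE), with a 95% interval of -0.019 to 0.33 and an edgeR adjusted p of 0.339.

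Mcam (ENSMUSG00000032135.12, chromosome 9, 44134469 to 44142727, plus strand) encodes CD146, an adhesion molecule of endothelium and pericytes. It stood at 18.9, 25.1 and 24.9 CPM in WT and at 24.9, 17.96 and 29.1 CPM in GFAP-IL6. The lowest and the highest library were both GFAP-IL6. The log2 fold change was 0.065 ± 0.16 (SE), with a 95% interval of -0.25 to 0.38 and an edgeR adjusted p of 0.849.

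Icam2 (ENSMUSG00000001029.13, chromosome 11, 106377656 to 106388075, minus strand), the ICAM that resting endothelium carries, stood at 2.09, 1.97 and 1.82 CPM in WT and at 2.51, 1.45 and 2.46 CPM in GFAP-IL6. Replicate 2 of GFAP-IL6, with 11 counts, was below every WT library and the other two were above them. The log2 fold change was 0.16 ± 0.27 (SE), with a 95% interval of -0.38 to 0.70 and an edgeR adjusted p of 0.773. With 11 to 33 counts per library, a rise of the size seen in Pecam1 lies within this interval, so that its absence is not shown.

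**Figure D1:**
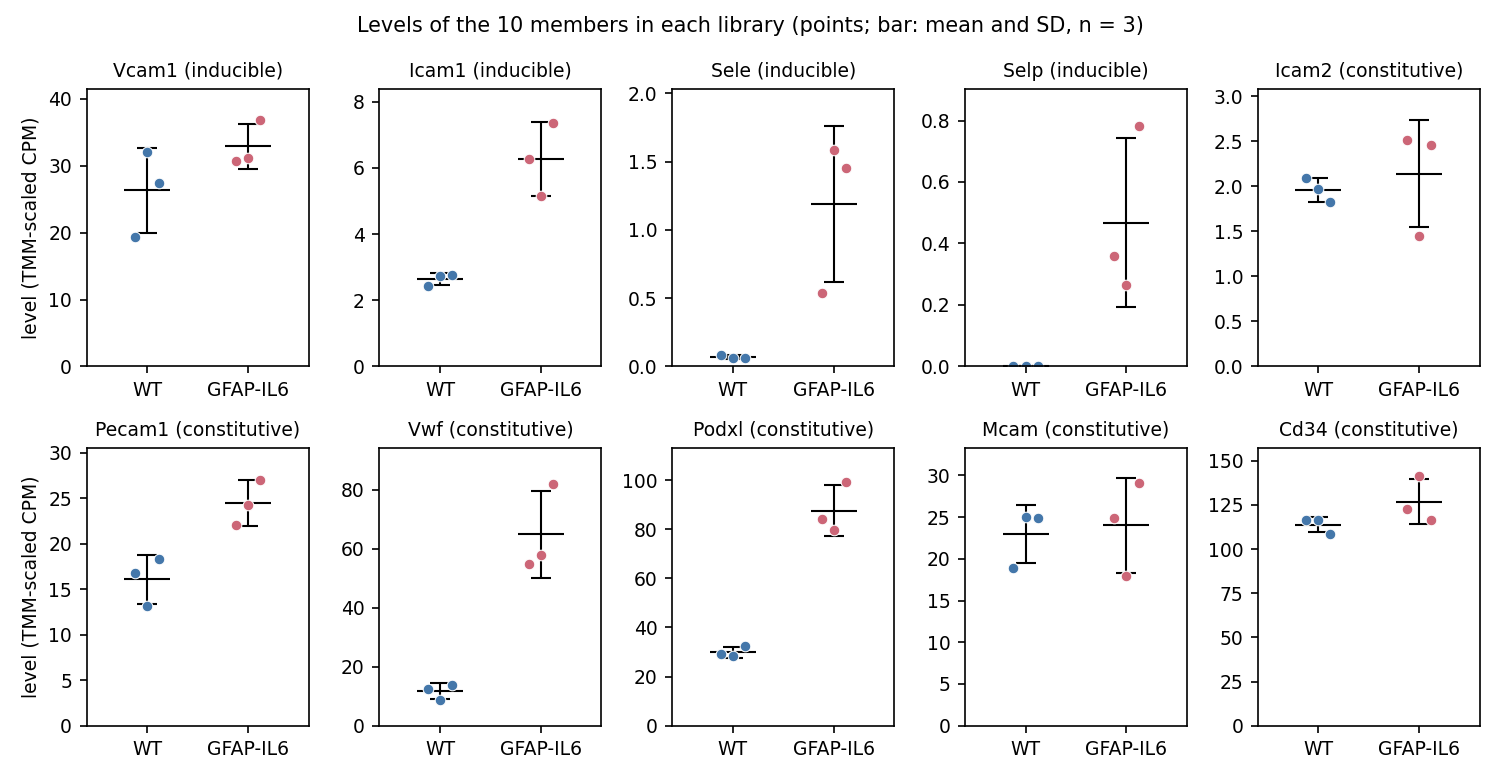
Levels of the 10 genes in TMM-scaled CPM (y axis, from 0, a separate scale for each gene) in 3 WT and 3 GFAP-IL6 libraries (points), with the mean and SD as bars. Vwf and Podxl are separated by wide gaps between the groups, Icam1 and Pecam1 by smaller ones, and Vcam1, Mcam and Icam2 overlap.

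In total, 4 of the 8 genes tested were higher at an adjusted p under 0.05, against 2.65% of all genes tested, and 0 were lower, against 0.209%. At the study's threshold for a differentially expressed gene, which adds a log2 fold change over 1, the count was 3 (Icam1, Vwf and Podxl), against 1.36% of all genes. Every GFAP-IL6 library lay above every WT library in 5 of the 8 genes tested, against 13.8% of all genes, and below in none, against 12.7%. Since the genes were picked with this contrast known, nothing is read from these shares. All 8 log2 fold changes were positive, with a median of 0.46, where 7573 of 15341 genes were positive and the median was -0.0038.

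The rule set inducible against constitutive genes, and genes of both kinds were called. Of the 4 inducible genes, Icam1 was called, Vcam1 was not, and the selectins were too low to test. Of the 6 constitutive genes, 3 were called (Vwf, Podxl and Pecam1) and 3 were not (Cd34, Mcam and Icam2). The median log2 fold change was 0.77 over the 2 inducible genes tested and 0.38 over the 6 constitutive genes, a difference of 0.39. With the mean in place of the median the difference was -0.061, and with the selectins let through the filter it was 2.18. Its sign thus turned with the mean, its size depended on whether the selectins entered, and no p is given for it.

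The change of these genes was then set beside 17 other genes of brain endothelium. These were chosen for their known cell type, with earlier results of these data known. Of these, 8 were higher at an adjusted p under 0.05 and 0 lower, with a median log2 fold change of 0.49. The range was from -0.13 for Itm2a to 1.01 for Sox18. Icam1, Podxl and Vwf had larger log2 fold changes than all 17 genes. Pecam1 was above 11 of them, Vcam1 above 5, and Icam2, Mcam and Cd34 above 2 each. The genes described here were picked with their fold changes known, so this order describes them and is no independent evidence.

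**Figure D2:**
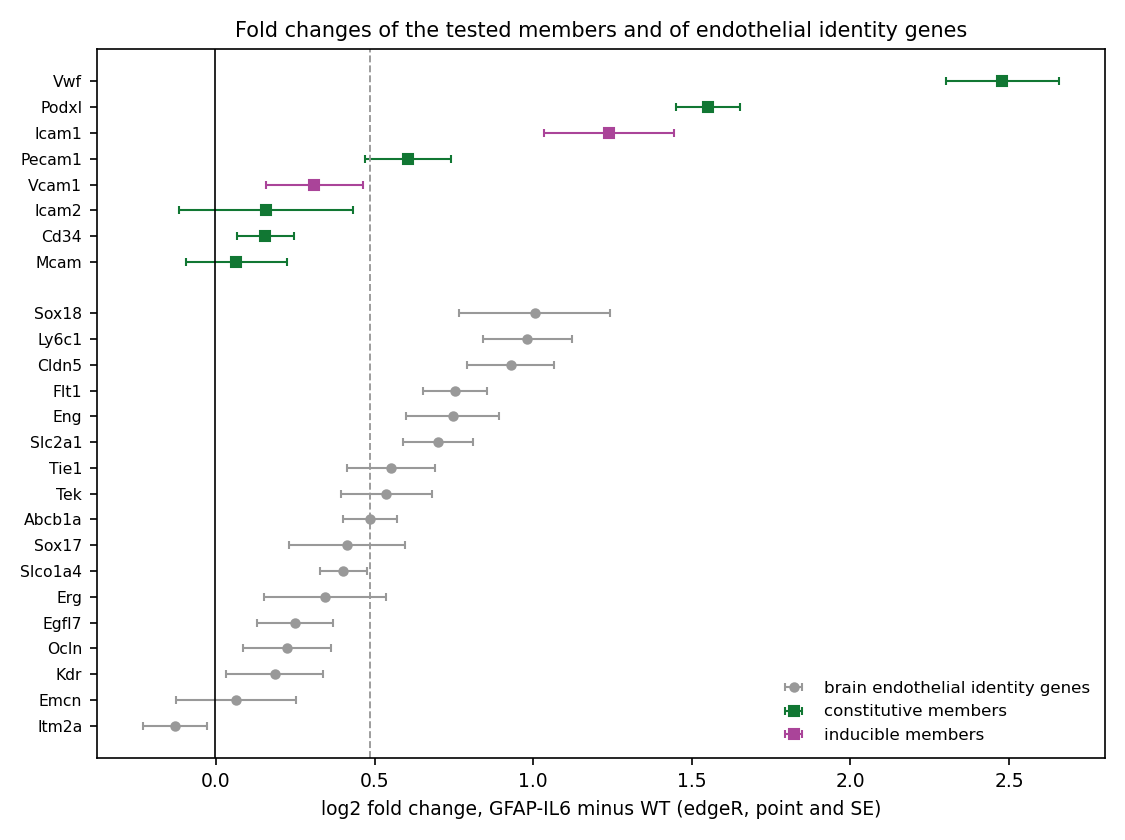
Log2 fold change of GFAP-IL6 minus WT by edgeR with its SE (x axis) for the 8 genes tested (squares, by group) and for 17 brain endothelial identity genes (grey circles). The solid line marks the median of all genes tested, at -0.0038, and the dashed line the median of the identity genes, at 0.49. Vwf, Podxl and Icam1 lie to the right of every identity gene, while Vcam1, Icam2, Cd34 and Mcam lie to the left of the dashed line.

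Levels were also expressed per endothelial reference, the geometric mean CPM of the 17 identity genes in the same library. The reference itself stood at 14.9 to 15.1 CPM over WT libraries and 20.4 to 22.2 CPM over GFAP-IL6 libraries, 1.41-fold higher. Vwf was 77.9 ± 17.2% of the reference in WT and 306 ± 55.4% in GFAP-IL6, 3.92-fold higher. Podxl moved from 199 ± 13.8% to 413 ± 33.2% and Icam1 from 17.7 ± 1.31% to 29.5 ± 4.41%, with no overlap of groups in either. These remained higher per reference, by 2.08-fold and 1.67-fold.

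The other genes tested did not lie above WT in every GFAP-IL6 library per reference. Pecam1 was 107 ± 17.3% in WT and 115 ± 6.87% in GFAP-IL6 and Vcam1 176 ± 44.0% and 155 ± 9.33%, with groups that overlapped. Cd34 was 758 ± 30.1% in WT and 601 ± 75.1% in GFAP-IL6, and here all GFAP-IL6 libraries were below all WT libraries. Mcam and Icam2 were 0.739 and 0.774 times their WT ratio and overlapped. The sign of the difference in Vcam1, Cd34, Mcam and Icam2 was thus positive in CPM and negative per endothelial reference. These ratios rest on the same choice of genes and are a description with no test.

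**Figure D3:**
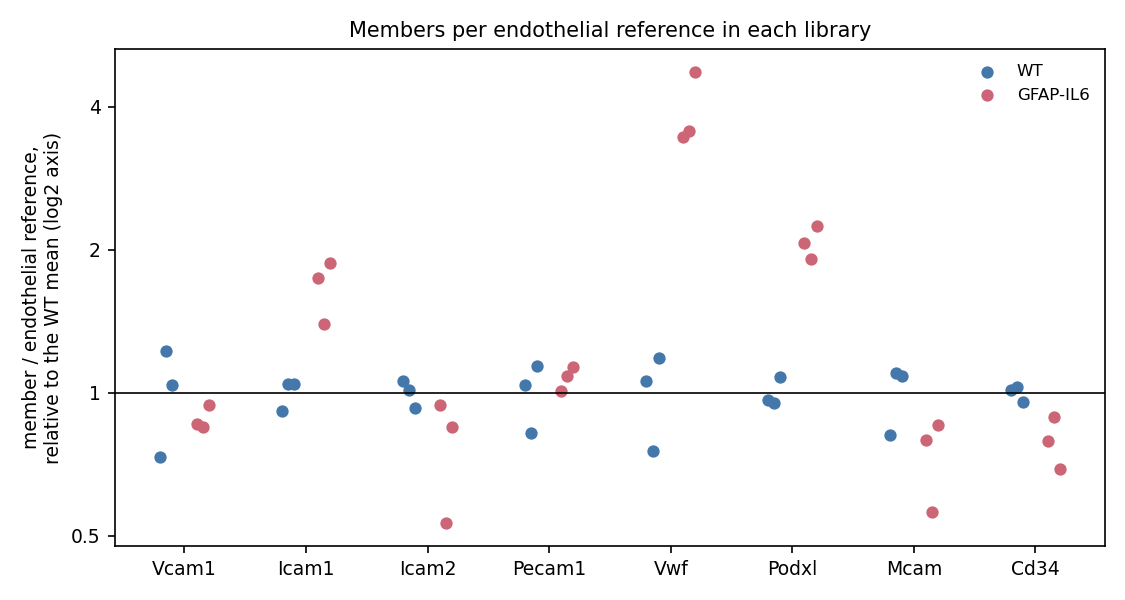
Level of each tested gene divided by the endothelial reference of the same library and by the WT mean of that ratio (y axis, log2 scale) in 3 WT and 3 GFAP-IL6 libraries (points). Vwf, Podxl and Icam1 lie above 1 in all GFAP-IL6 libraries, and Vcam1, Icam2, Mcam and Cd34 lie below 1 in all of them.

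Per length, the order of the genes differed between the groups. TPM, which divides counts by gene length, placed Cd34 first in both, at 121 ± 5.70 TPM in WT and 142 ± 13.7 TPM in GFAP-IL6. In WT, Mcam followed at 21.3 ± 2.80 TPM, then Podxl at 15.4 ± 1.28, Vcam1 at 14.6 ± 3.17, Pecam1 at 10.8 ± 2.01, Icam2 at 4.25 ± 0.37, Vwf at 3.33 ± 0.81 and Icam1 at 2.89 ± 0.14 TPM. The libraries of Podxl and Vcam1, of Vcam1 and Pecam1 and of Vwf and Icam1 overlapped, so that these neighbours are not separated by their spread. In GFAP-IL6, Podxl followed Cd34 at 47.4 ± 5.51 TPM, and Vwf stood at 19.4 ± 4.31 TPM. There Mcam, Vwf, Vcam1 and Pecam1 each overlapped with the next, between 23.4 ± 5.55 and 17.2 ± 1.64 TPM. Icam1, at 7.19 ± 1.28 TPM, was above Icam2, at 4.87 ± 1.38 TPM, the reverse of the order in WT. The selectins were last in both groups, with Sele at 1.19 ± 0.56 TPM and Selp at 0.397 ± 0.232 TPM in GFAP-IL6.

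Ratios of TPM within a library set pairs of these genes side by side. Icam1 to Icam2, the inducible and the resting ICAM, was 0.589, 0.704 and 0.766 in WT and 1.26, 1.79 and 1.51 in GFAP-IL6. Podxl to Cd34, both sialomucins of the CD34 family, was 0.121, 0.118 and 0.144 in WT and 0.332, 0.273 and 0.413 in GFAP-IL6. Vwf to Pecam1 was 0.313, 0.282 and 0.320 in WT and 1.05, 1.01 and 1.28 in GFAP-IL6. In these ratios no GFAP-IL6 library came as low as any WT library, whereas Vcam1 to Mcam overlapped, at 0.682 ± 0.078 in WT and 0.846 ± 0.169 in GFAP-IL6. Since the fold changes of these genes were known, the ratios restate them and are no further evidence.

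The partners of these molecules on leukocytes and microglia are mainly integrins. Of 14 such genes 10 were tested, 3 were higher and 0 lower at an adjusted p under 0.05, and the median log2 fold change was 0.36. The called genes were subunits of the receptors of ICAM-1. Itgam, the α chain of Mac-1, rose from 26.1 ± 1.80 to 107 ± 10.2 CPM and Itgb2, the β chain of LFA-1 and Mac-1, from 5.25 ± 0.024 to 16.1 ± 0.91 CPM. Itgax, which pairs with Itgb2, rose from 0.212 ± 0.111 to 1.88 ± 0.284 CPM, from 1 to 5 counts in WT. Their log2 fold changes were 2.03, 1.62 and 3.02. The α chain of LFA-1, Itgal, had 6 to 12 counts per library and was not tested. The subunits of VLA-4, the receptor of VCAM-1, did not pass the test, with log2 fold changes of -0.011 ± 0.13 (SE) for Itga4 and -0.016 ± 0.11 (SE) for Itgb1. Selplg, the ligand of P-selectin, had a log2 fold change of 0.22 ± 0.11 (SE) and an edgeR adjusted p of 0.252.

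Other molecules that leukocytes meet in the vessel wall were counted in the same way. Of 12 genes 11 were tested, 2 were higher and 0 lower, with a median log2 fold change of 0.070. The called genes were F11r, the junctional adhesion molecule JAM-A, and Esam, an endothelial adhesion molecule, with log2 fold changes of 0.90 ± 0.17 and 0.69 ± 0.13 (SE). F11r was not called without GFAP-IL6 replicate 3, with an adjusted p of 0.0987, and Esam was not called without GFAP-IL6 replicate 1, with one of 0.0716. Of 12 genes of endothelial activation and haemostasis 10 were tested, 2 were higher and 0 lower, with a median of 0.24. Lrg1, a secreted glycoprotein, rose from 2.02 ± 0.15 to 14.9 ± 3.79 CPM and Nos3, the endothelial nitric oxide synthase, from 8.41 ± 1.49 to 17.1 ± 2.98 CPM. Angpt2, which is stored with Vwf in Weibel-Palade bodies, had a log2 fold change of -0.74 ± 0.36 (SE) and an edgeR adjusted p of 0.263. In CPM every GFAP-IL6 library of Angpt2 lay below every WT library, from low counts of 7 to 8 against 12 to 29.

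Genes of the cytokine signals that raise the inducible molecules were examined next. Of 16 genes 14 were tested, 7 were higher and 0 lower, with a median log2 fold change of 0.63. The smallest adjusted p values were those of Osmr, the receptor of oncostatin M, Il1r1, the IL-1 receptor, Socs3, a feedback inhibitor of STAT3, and Stat3 itself. Their log2 fold changes were 2.16, 2.06, 1.92 and 0.80, and the others called were Tnfrsf1a, Tnfrsf1b and Il6ra. Tnfrsf1b was not called without GFAP-IL6 replicate 1, 2 or 3. The cytokines Tnf and Il1b, classic inducers of Sele and Vcam1, had at most 4 and 10 counts in any library and were not tested. Of the NF-κB subunits and inhibitors in the list, none passed the test. The log2 fold changes were 0.42 ± 0.10 for Nfkb1, 0.30 ± 0.10 for Rela, 0.46 ± 0.21 for Relb, 0.15 ± 0.12 for Nfkbia and 0.35 ± 0.19 for Tnfaip3 (SE). Every GFAP-IL6 library was above every WT library in Nfkb1, Rela and Relb, and Nfkb1 had an edgeR adjusted p of 0.0507.

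Markers of vessel segments and of other cells were counted to describe what else moved with these genes. Venous endothelium, where Vwf, Sele and Selp are known to be highest, had 2 of 4 genes higher and 0 lower, and the range of its summed level was 33.4 to 37.0 CPM in WT and 45.8 to 57.6 CPM in GFAP-IL6. The called genes were Slc38a5, an amino acid transporter, at a log2 fold change of 2.93 ± 0.33 (SE), and Ephb4, at 0.92 ± 0.17 (SE). Slc38a5 rose from 1.57 ± 0.62 to 11.5 ± 4.90 CPM, the largest part of the rise in the sum. Nr2f2 and Car8 did not pass the test, with log2 fold changes of 0.14 ± 0.15 and 0.087 ± 0.12 (SE). Their edgeR adjusted p values were 0.620 and 0.702. Ephb4 was not called without GFAP-IL6 replicate 3, with an adjusted p of 0.0993. Arterial markers had 1 of 7 higher, Sema3g, which was not called in 4 of the 6 fits that left out a library. Their summed levels overlapped, at 121.5 to 153.4 CPM in WT and 128.1 to 133.0 CPM in GFAP-IL6. Capillary markers had 0 of 5 called by edgeR and 0 at an unadjusted p under 0.05, with summed levels of 909 to 1045 CPM and 998 to 1065 CPM. The capillary sum was mostly Spock2 and Tfrc, at 669 and 204 CPM in WT. The arterial sum was mostly Hey1 and Efnb2, at 58.4 and 51.6 CPM in WT. Such sums follow their most abundant genes, and whole tissue does not show which cells these transcripts came from. A contrast between vessel segments is therefore not read from them.

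Among the identity genes of brain endothelium, the called ones with the smallest adjusted p were Flt1, a VEGF receptor, Ly6c1, Cldn5, the main claudin of the blood-brain barrier, and Slc2a1, its glucose transporter. Their log2 fold changes were 0.75, 0.98, 0.93 and 0.70, and each was called in all 6 fits that left out a library. The number called over the list fell from 8 to 5 without GFAP-IL6 replicate 2 or 3. The summed level of the list was 391 to 404 CPM in WT and 543 to 597 CPM in GFAP-IL6. Mural cells had 2 of 10 genes higher, Rgs5 and Notch3, and neither was called without WT replicate 3 or any 1 GFAP-IL6 library. Their summed level was 185 to 211 CPM in WT and 249 to 293 CPM in GFAP-IL6.

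Of 7 microglial markers 6 were higher, against 2.65% of all genes tested, P2ry12 being the exception at a log2 fold change of -0.27 ± 0.14 (SE). Their summed level was 356 to 441 CPM in WT and 663 to 764 CPM in GFAP-IL6, and C1qa, Csf1r and Tmem119 were among those called. Without WT replicate 3 or any 1 GFAP-IL6 library, 5 were called. Without WT replicate 1 all 7 were called, 6 higher and 1 lower. Of 6 astrocyte markers 1 was higher, Gfap, and the summed level overlapped, at 4346 to 5530 CPM in WT and 5347 to 6481 CPM in GFAP-IL6. Microglia also use Icam1, and the part of this sum in its rise was not tested.

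Blood cells left few transcripts. Of 9 leukocyte markers none passed the filter, Cd3d had 0 counts in every library, and the summed level was 0.261 to 1.19 CPM in WT and 1.06 to 2.79 CPM in GFAP-IL6. Most of this was Ccr2, a chemokine receptor of monocytes, with 2 to 11 counts in WT and 5 to 14 in GFAP-IL6. In CPM it stood at 0.444 ± 0.246 in WT and 1.12 ± 0.41 in GFAP-IL6, with no overlap of groups. The margin was narrow, as 11 counts in WT replicate 2 and 5 in GFAP-IL6 replicate 2 came to nearly equal CPM. Cd3e and Cd8a did not overlap in CPM either, but were at or under the floor in every library. Each of the other leukocyte markers overlapped. Of 8 platelet and megakaryocyte markers 2 were tested and 0 called by edgeR, with 0 at an unadjusted p under 0.05, and Gp9 and Ppbp had at most 3 counts in any library. Their summed level was 12.2 to 14.3 CPM in WT and 12.4 to 15.2 CPM in GFAP-IL6. The 2 tested were Gp1bb, at 9.49 CPM in WT and 9.14 CPM in GFAP-IL6, and Itga2b, at 2.10 and 2.99 CPM, with every GFAP-IL6 library above every WT library in Itga2b. The part of platelets in the levels of Vwf, Selp and Pecam1 was not tested.

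Perivascular macrophages (4 genes tested), fibroblasts (4), choroid plexus (3), neurons (5) and oligodendrocytes (4) had 0 genes called by edgeR, and 2 choroid plexus and 2 neuronal genes had an unadjusted p under 0.05. Their summed levels overlapped between groups except in neurons, at 6746 to 7119 CPM in WT and 5772 to 6684 CPM in GFAP-IL6. The choroid plexus sum was 3.57 to 608 CPM in WT, the upper end being WT replicate 3. Without this library Vwf, Podxl, Icam1 and Pecam1 were again called.

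**Figure D4:**
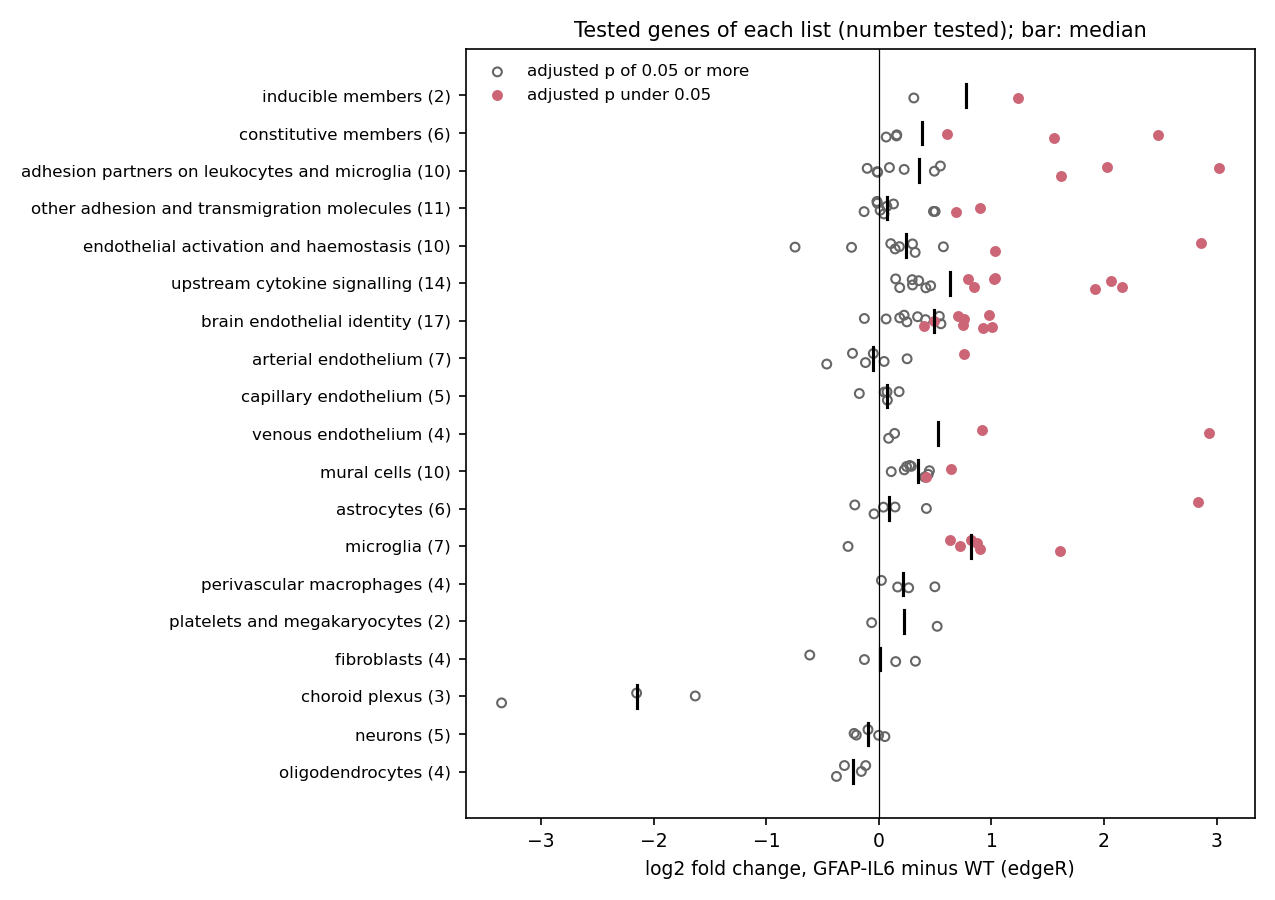
Log2 fold change of GFAP-IL6 minus WT by edgeR (x axis) of every tested gene in each list (rows, number tested in parentheses), filled where the adjusted p was under 0.05, with the median as a bar. The leukocyte list has no tested gene and is not drawn. Called genes lie to the right of 0 in each list that has any, and choroid plexus genes lie to the left with open circles.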

How the data were processed

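RNA was measured with TruSeq mRNA libraries from mouse frontal cortex, 6 in all. According to the study's methods, the authors aligned reads to the mouse mm10 assembly with STAR and counted those on GENCODE genes with featureCounts, and the submitters' processing notes give STAR version 2.4. Whether counting used the strand of a read is not given in the sources used here. The deposited values are raw counts per gene and library, for 33000 genes, with no normalization, beside a length per gene.

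From these counts, edgeR 4.0.16 in R 4.3.3 was run across all genes with the filterByExpr filter, TMM scaling and the quasi-likelihood F-test. P values were adjusted by Benjamini-Hochberg across all 15341 genes kept, and group was the sole term. DESeq2 1.42.0, RLE scaling, no filter, thinning to the smallest library, a replicate block and leaving out each library were the alternatives. The fits were tested on simulated data with 50 genes changed at each size. There edgeR recovered 56%, 80%, 96% and 100% of changes of 1.5, 2, 4 and 8-fold. Of its calls at an adjusted p under 0.05, 8.79% were false, and of those of DESeq2 5.95%. Levels are TMM-scaled CPM, or TPM from the deposited length. Standard errors come from the F statistic. The intervals of log2 fold changes use a normal quantile of these errors, so that they are narrower than the F-test implies. Positions are from GENCODE M21, on the same assembly as mm10, and promoter sequences from RefSeq. The members and the gene lists were chosen with earlier results of these data known, by their textbook roles. All members are named, with up to 4 genes of each other list that had an adjusted p under 0.05 and the smallest values, and further list genes that were chosen after their values were seen. Single values of some list genes are not reported here. Total counts of 7559524 to 16877001 per library set the precision of low genes, and 3 counts in a library was taken as the floor, which covers counting error only. The study describes 3 mice in each group, and the labels number the libraries and give no batch.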

Additional observations from a re-analysis of the deposited data

How the results depend on the processing

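Vwf, Podxl and Icam1 were called higher in all 12 fits, with log2 fold changes of 2.28 to 2.63, 1.46 to 1.61 and 1.11 to 1.35. Pecam1 was called in 9 of the 12 fits, and Vcam1, Icam2, Mcam and Cd34 in none. Mcam fell below 0 without WT replicate 1, at -0.046, and without GFAP-IL6 replicate 3, at -0.087, was 0.22 without GFAP-IL6 replicate 2, and was not called in any of these. The number of members called was 6 without the filter and under DESeq2, which let the selectins through. It was 3 to 5 when each library was left out in turn. These counts include Sele without WT replicate 1, 2 or 3 or GFAP-IL6 replicate 1, where it passed the filter through its GFAP-IL6 counts.

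The number of all genes called was 439, against 1154 without the filter on low counts and 750 with the replicate block. When each library was left out in turn it was between 187 and 1061, lowest without GFAP-IL6 replicate 3 and highest without WT replicate 1, and genes past a log2 fold change of 1 numbered 129 to 239. Whether libraries with the same replicate number share an origin is not given by the labels and was not tested. The deviations of same-numbered libraries correlated at 0.12, 0.019 and 0.050 across genes. Of the 3 GFAP-IL6 libraries, 2 were nearest to the WT library of their own number. The block left the members called at 4.

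The difference of the median log2 fold change between inducible and constitutive genes was 0.39. It was 2.29 under DESeq2 and 2.18 without the filter, where the selectins enter, 1.079 with Vwf counted as inducible and -0.061 with means. When each library was left out, it was 0.30 to 0.94. Sele entered without WT replicate 1, 2 or 3 or GFAP-IL6 replicate 1, at 0.77, 0.94, 0.85 and 0.81. Without GFAP-IL6 replicate 2 or 3, where Sele did not enter, the difference was 0.37 and 0.30. After subtraction of the endothelial identity median, the values were 1.99 for Vwf, 1.07 for Podxl, 0.75 for Icam1, 0.12 for Pecam1, -0.18 for Vcam1, -0.33 for Icam2 and Cd34 and -0.42 for Mcam. The cause of these shifts was not tested where none is named. Depth limits the selectins and Icam2 most.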
